A study of Mus musculus with 8 samples.

Results

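A-type fibroblasts of the adult mouse lung were compared with unsorted cells of the lung, on 4 of the 8 one-colour Agilent arrays of the study. The samples were chosen by their titles, which name 2 samples of A-type fibroblasts (arrays A1 and A2) and 2 of pulmonary single cells (Pu1 and Pu2). The other 4 arrays hold B-type and C-type fibroblasts. The cells of every group were isolated fresh from untreated adult C57BL/6 females, 12 to 16 weeks old, and the 2 samples of each group were separate preparations. For each sample 50000 cells were taken and 10 ng of RNA was amplified. Sorting used stains for the blood markers CD45 and TER119, the vessel markers CD31, CD146 and Lyve-1, and the epithelial E-Cadherin, and also for Thy-1, Sca-1 and Pdgfra. Neither the levels of the last 3 that define the A type nor the number of mice per sample is stated in the sources used here.

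Fibroblasts are the mesenchymal cells that build and repair the extracellular matrix of the lung. They secrete collagens, elastic fibre proteins and proteoglycans together with the enzymes that cut and crosslink them, and they send growth factors, chemokines and complement proteins to the epithelium, vessels and immune cells around them. In the lung, adventitial fibroblasts lie in the cuffs around large vessels and airways, while alveolar fibroblasts, some of which store lipid and retinoid, lie in the gas-exchange walls. The unsorted suspension mixes fibroblasts with epithelium, endothelium, mesothelium, muscle and blood cells, so a gene shared with those cells has a level in both groups.

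Levels are given as log2 processed signal minus the 75th percentile of the array, so that 0 is the brightness of a probe at that percentile. A level belongs to 1 probe and is not compared with the level of another gene. The signal at the 75th percentile was 126 and 250.0 units on Pu1 and Pu2 and 182 on both A-type arrays, 60.6% to 68.7% of the spots on the 4 arrays were well above background, and 0 were saturated. Across the 17459 genes tested the 2 A-type arrays correlated at r = 0.986 and 4.66% of genes lay at least 2-fold apart between them. The 2 pulmonary arrays correlated at 0.916 with 30.8% of genes at least 2-fold apart, and a pulmonary and an A-type array correlated at 0.745 to 0.791. Such values run across genes, and genes are not independent of each other. The pulmonary arrays share 1 slide and 1 scan and the A-type arrays another, so slide and cell type cannot be told apart.

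Calls were made by limma, fitted to all 8 arrays, where the p adjusted by Benjamini-Hochberg was under 0.05. Of the 17459 genes 27.1% were called, 2605 higher (14.9%) and 2127 lower (12.2%) in A-type cells, and the median log2 difference of all genes was 0.10. List counts below are to be set against these shares, and counts near them are given as a description. The 2 A-type arrays were both above the 2 pulmonary arrays in 36.8% of all genes and both below them in 29.7%. Of the calls 55.1% were higher. That split was 67.8% under median scaling, which moved the median of all genes to 0.43, and 67.9% in the authors' value table. When the percentile was taken over detected probes only, which all 8 arrays had above background, the share was 40.8% and the median -0.19, and 68.2% among probes above background on all 4 arrays. In all, 4732 genes were called, 2473 without A1 and 2190 without A2. For a gene whose call depends on 1 array, the adjusted p without that array is given in parentheses. Many list counts below also fell without A1 or A2, and the drop is not given for every list. A difference of at least 16-fold was seen in 178 genes called higher and 624 called lower. In bulk RNA, fewer cells of a type and less RNA per cell cannot be told apart.

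**Figure D1:**
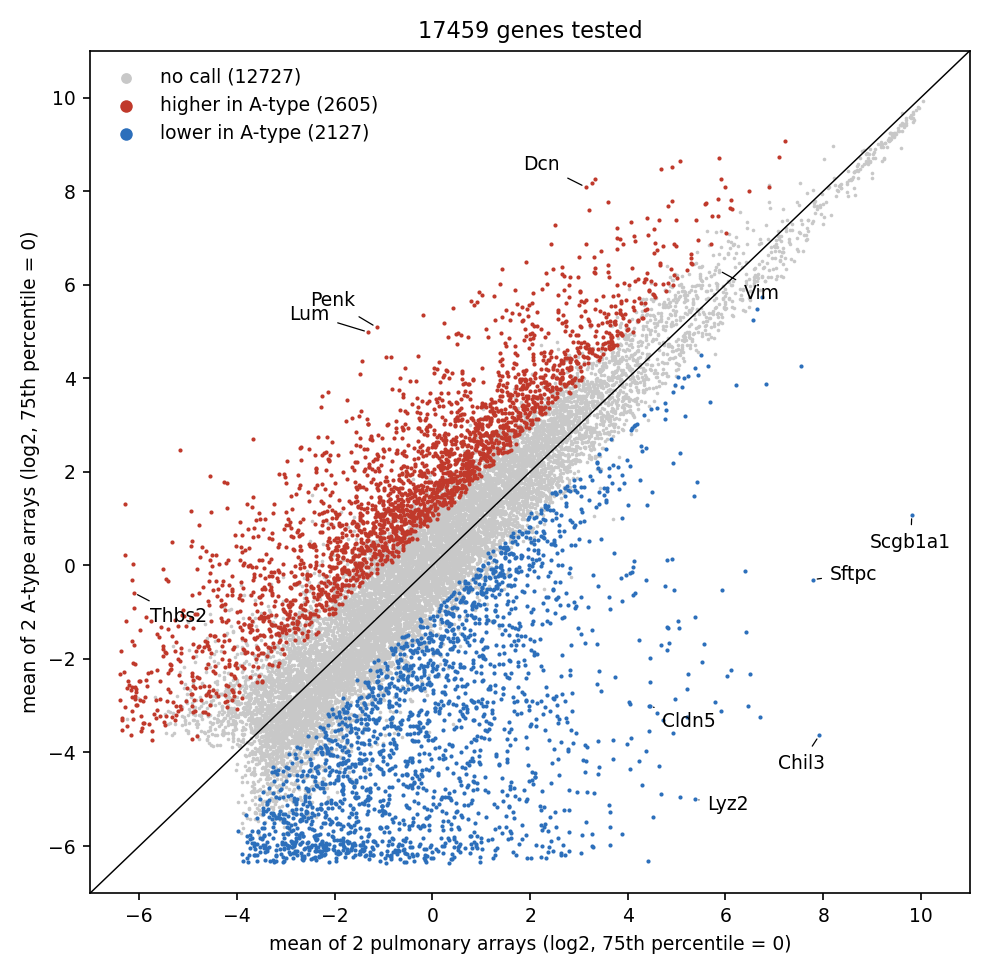
Mean scaled log2 signal of the 2 A-type arrays (vertical) against that of the 2 pulmonary arrays (horizontal) for 17459 genes, 1 point per gene, with the line of equal signal. Genes called higher in A-type cells (2605) are red and genes called lower (2127) are blue; the lower calls reach farther from the line, to Chil3, Lyz2 and Scgb1a1.

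The label was first set against fibroblast markers. The list includes Pdgfra, a stain of the sort, so that member is not independent of the sort. Several other members are matrix genes that count again in the matrix groups below. The list was chosen with earlier results of these data known, so it is no independent check of the label. Of 11 genes 10 were higher in A-type cells, with a median log2 difference of 3.60 (9 were higher without A1 and 8 without A2). Col1a1, a chain of type I collagen, read 1.98 and 2.69 on Pu1 and Pu2 and 6.01 and 6.02 on A1 and A2 and was 12.8-fold higher (3.68 ± 0.35 SE, adjusted p = 0.000429). Decorin (Dcn), a proteoglycan that binds collagen fibrils, read 3.12 and 3.16 on Pu1 and Pu2 and 7.98 and 8.18 on A1 and A2 and was 30.8-fold higher (adjusted p = 0.000301). The groups did not overlap in either gene, as in 36.8% of all genes with the A-type arrays higher. The A-type arrays lay closer together than the pulmonary arrays in Col1a1. Pdgfrb, a PDGF receptor of fibroblasts and pericytes, was 4.81-fold higher (adjusted p = 0.00678), a call lost without A2 (0.0552). Vim, the intermediate filament gene of mesenchymal, endothelial and blood cells, read 5.91 and 5.81 on Pu1 and Pu2 and 6.26 and 6.35 on A1 and A2 and did not pass (adjusted p = 0.234).

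Genes of the sorting antibodies are not independent of the sort and are given as a description. Pecam1, which encodes CD31, read 3.49 and 3.34 on Pu1 and Pu2 and -2.61 and -1.89 on A1 and A2. Ptprc, which encodes CD45, read 1.37 and 1.09 on Pu1 and Pu2 and -1.22 and -1.17 on A1 and A2, and Cdh1, which encodes E-cadherin, -1.51 and -2.16 on Pu1 and Pu2 and -6.08 and -5.88 on A1 and A2, below background on both A-type arrays. Lyve1 read 2.75 and 2.83 on Pu1 and Pu2 and -6.34 and -5.04 on A1 and A2, also below background in A-type cells. All 4 were dimmer on both A-type arrays. Mcam, which encodes CD146, read 8.81 and 8.96 on Pu1 and Pu2 and 8.71 and 8.58 on A1 and A2 on its brightest probe, with hardly any gap between groups, while its probes ranged from -3.61 to -0.23 in log2 difference. Of the genes for the other 3 stains, Pdgfra read 1.82 and 1.60 on Pu1 and Pu2 and 3.73 and 3.86 on A1 and A2, Ly6a, which encodes SCA-1, 4.88 and 5.06 on Pu1 and Pu2 and 6.04 and 6.40 on A1 and A2, and Thy1 2.67 and 3.02 on Pu1 and Pu2 and -0.46 and -0.03 on A1 and A2. Pdgfra and Ly6a were brighter and Thy1 was dimmer on both A-type arrays.

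The 15 highest called genes above background on all 4 arrays, chosen among those whose groups did not overlap, are given by size. Lumican (Lum), a collagen-binding proteoglycan, led at 78.5-fold, followed by Penk, the proenkephalin gene, which read -1.78 and -0.50 on Pu1 and Pu2 and 5.04 and 5.14 on A1 and A2 and was 75.1-fold higher (6.23 ± 0.52 SE, adjusted p = 0.000259). Htra1, a secreted serine protease that cuts matrix proteins, read -2.77 and -1.76 on Pu1 and Pu2 and 3.42 and 3.81 on A1 and A2 (59-fold, adjusted p = 0.000143). Scara5, a ferritin receptor, read -2.11 and -2.16 on Pu1 and Pu2 and 3.79 and 3.65 on A1 and A2 (57.8-fold, adjusted p = 0.000725; its probes ranged from 1.77 to 5.85). Next came Col14a1 (55.8-fold), the eotaxin gene Ccl11 (50.4-fold), the fibulins Fbln7 (47.1-fold; probes 2.70 to 5.56) and Fbln2 (41.8-fold), Olfml2b (46.1-fold), the retinol carrier Rbp4 (39-fold), the cytochrome Cyp1b1 (38.5-fold), the metalloprotease Mmp23 (37.1-fold), the transcription factor Twist2 (36.9-fold), Armh4 (34.1-fold) and the hyaluronan-binding protein Tnfaip6 (34-fold; probes 0.65 to 5.09).

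Another group of genes was above background in A-type cells and on neither pulmonary array, so that only a lower bound of the fold can be given. These genes entered the test only through the A-type arrays, so their higher direction was largely fixed by the filter. The bound sets the A-type mean against the lowest signal well above background on each pulmonary array, or the gene's own signal where that is higher. Some probes brighter than that lowest signal were still not well above background, so the bound is approximate. Arhgap36, a regulator of hedgehog signalling, was at least 43-fold higher, with A-type levels of 1.25 and 1.38. The sulfatase gene Arsi (at least 36.9-fold), the mitochondrial calcium-binding Efhd1 (at least 31.5-fold), the ectonucleotidase Enpp3 (at least 24.6-fold), Adamtsl1 (at least 23.9-fold; probes 1.52 to 4.69) and the teneurin Tenm3 (at least 20-fold) followed. The rest of the group held Htra4 (at least 19.6-fold), Cgref1 (at least 17.8-fold), Mgarp (at least 17.5-fold), the limbic adhesion molecule Lsamp (at least 15.5-fold) and the bradykinin receptor Bdkrb1 (at least 14.1-fold). Mmp27 was at least 16.4-fold higher on its brightest probe, but its probes ranged from -0.54 to 5.45 in log2 difference and differed in sign.

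The 15 lowest called genes chosen in the same way came from several lineages. Chil3, which alveolar macrophages secrete, read 7.63 and 8.21 on Pu1 and Pu2 and -3.99 and -3.28 on A1 and A2 and was 3009-fold lower (-11.56 ± 1.13 SE, adjusted p = 0.000486). Scgb1a1, the secretoglobin of club cells, read 9.89 and 9.73 on Pu1 and Pu2 and 0.91 and 1.25 on A1 and A2 (425-fold lower, adjusted p = 0.000308), and surfactant protein C (Sftpc) 7.77 and 7.82 on Pu1 and Pu2 and -0.48 and -0.13 on A1 and A2 (274-fold, adjusted p = 0.000182). Though far below the pulmonary level, all 3 stayed above background on both A-type arrays. Chil3 lay near the limit there, since the lowest signal well above background was -4.19 on A1 and -3.86 on A2. Its fold therefore rests on dim A-type values. The leukocyte genes Ctss (714-fold), Lcp1 (456-fold), Cd74 (334-fold), Itgb2 (327-fold) and Rnase2a (192-fold) were also lower and still measured. So were Clic5, a gene of alveolar type 1 cells (259-fold), Cbr2, a carbonyl reductase of club cells (233-fold), Plet1 (422-fold), the endothelial gene Cd93 (228-fold) and Ctla2a (216-fold). The globin genes Hba-a2 (350.3-fold) and Hba-a1 (231-fold) were read on probes that match both or further genes, so the 2 cannot be separated. Below background on both A-type arrays were Lyz2, the lysozyme of myeloid cells (at least 674-fold lower), Laptm5 (at least 547-fold), the NADPH oxidase subunit Cybb (at least 419.7-fold), the proton pump subunit Atp6v0d2 (at least 370.5-fold; probes -9.89 to -6.78), the MHC class II chain H2-Aa (at least 364-fold), S100a9 (at least 347-fold) and Cd36 (at least 321-fold). The same held for Adgrf5 (at least 242-fold), Klra2 (at least 222-fold), the granzyme Gzma (at least 208-fold), Lilrb4a (at least 203-fold; its probe matches further genes) and the fungal receptor Clec7a (at least 203-fold). Genes below background on both A-type arrays entered the test only through the pulmonary arrays.

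Markers of other lung cell types are given list by list. A gene above background on neither A-type array entered the test only through the pulmonary arrays. Its lower direction was thus largely fixed by the filter. Of 19 blood endothelial genes 17 were lower (median -5.34), a count that fell without A1 or A2. The tight junction gene Cldn5 read 4.21 and 4.69 on Pu1 and Pu2 and -2.99 and -3.01 on A1 and A2, 174-fold lower, and Tie1, an endothelial receptor, was at least 107-fold lower. The remaining 2, Ramp2 and Car4, did not pass (-1.05 and -0.61), and the probes of Car4 ranged from -6.68 to -0.61. Kdr, the main VEGF receptor of endothelium, was 2.68-fold lower on its brightest probe, with probes from -7.64 to -1.42, and that call was lost without A1 (0.101) and without A2 (0.0897). Of 4 lymphatic genes 3 were lower, among them Flt4 (at least 22.2-fold), and Prox1, the lymphatic transcription factor, did not pass (-0.44).

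Alveolar type 2 genes were lower in 6 of 9 (median -7.26; all 9 without Pu1 or with the percentile taken over detected probes only). The surfactant proteins Sftpb (at least 125-fold) and Sftpd (172-fold; 112-fold with the floor; detected on 1 A-type array) and the phosphate transporter Slc34a2 (at least 113-fold) were among them. Alveolar type 1 genes were lower in 7 of 8, such as Hopx (16.4-fold), and Pdpn, a membrane mucin that fibroblasts also carry, was 8.2-fold higher, at -0.95 and -0.30 on Pu1 and Pu2 and 2.20 and 2.62 on A1 and A2 (adjusted p = 0.000746). Airway genes were lower in 9 of 14 (median -4.00). Foxj1, the master regulator of cilia, was at least 28.1-fold lower, and the keratins Krt8 (at least 18.6-fold) and Krt18 (20.3-fold; above background on 1 A-type array) were lower too. Mesothelial genes were lower in 5 of 6, among them Msln (at least 8.89-fold) and Krt19 (at least 101-fold), and Wt1 did not pass (-1.38).

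Blood cell genes followed. Of 16 macrophage and dendritic genes 15 were lower (median -7.66), such as Mrc1, the mannose receptor (at least 77.6-fold), and Itgax, the integrin chain CD11c (at least 84.5-fold). Csf1r, the receptor for CSF1, did not pass on its brightest probe (-0.29), although its probes ranged from -5.84 to -0.29, and it passed without Pu1 (0.0358). T and NK cell genes were lower in 9 of 11, with Cd3d at least 46.9-fold, B cell genes in 5 of 5, with Cd79a 24.8-fold, and neutrophil genes in 4 of 6, with S100a8 at least 134-fold. Csf3r and Ly6g of the last list did not pass (-0.20 and 0.52). Of 5 erythroid and platelet genes 4 were lower (2 without A2). The median level of the macrophage and dendritic list was 4.42 and 5.17 on Pu1 and Pu2 and -2.84 and -3.21 on A1 and A2, and that of the blood endothelial list 2.35 and 3.08 and -2.58 and -3.01. The number of tested genes above background on neither A-type array was 4 of 16 for macrophages and dendritic cells, 7 of 11 for T and NK cells, 3 of 5 for B cells, 4 of 6 for neutrophils and 4 of 19 for blood endothelium. It was 3 of 4 for lymphatic endothelium, 3 of 9 for alveolar type 2 cells, 1 of 8 for type 1 cells, 5 of 14 for airway epithelium and 5 of 6 for mesothelium. For these genes the filter left little room for a higher call. The rest of these markers had a measurable, low or moderate level in A-type cells, and the source of that signal was not tested.

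**Figure D2:**
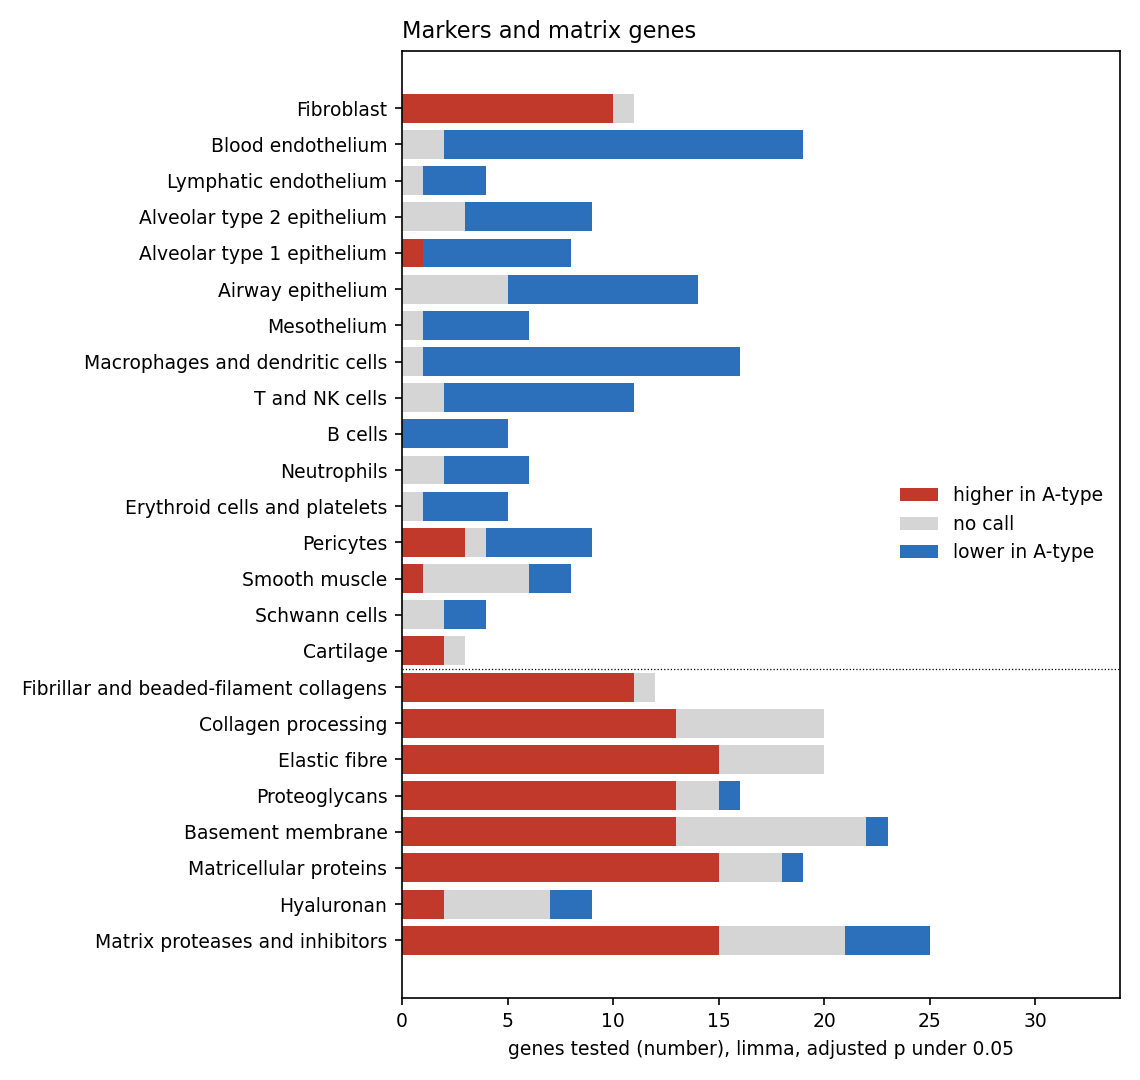
Number of genes tested in each of 16 marker lists of cell types (above the dotted line) and 8 lists of matrix genes (below it), split into genes called higher in A-type cells (red), lower (blue) and not called (grey). The fibroblast bar and most matrix bars are mainly red, the endothelial, epithelial and blood cell bars mainly blue, and the pericyte and smooth muscle bars hold both colours.

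Of 9 pericyte genes 3 were higher, among them the potassium channel subunits Kcnj8, at -3.40 and -2.36 on Pu1 and Pu2 and 1.20 and 1.22 on A1 and A2 (17.1-fold, adjusted p = 0.000724), and Abcc9, at -1.86 and 0.65 on Pu1 and Pu2 and 3.61 and 3.71 on A1 and A2 (19.2-fold, adjusted p = 0.00497). In both genes all 4 arrays were above background and the groups did not overlap, as in 36.8% of all genes with the A-type arrays higher. Another 5 were lower (4 without Pu1, 3 without Pu2 or A1 or under median scaling, 2 without A2), among them Trpc6, a calcium channel (at least 16.5-fold), and Rgs5, the pericyte regulator of G-protein signalling (at least 5.65-fold). Of 8 smooth muscle genes Myh11, the smooth muscle myosin (12.2-fold), and calponin (Cnn1, 3.7-fold) were lower (4 genes with the percentile taken over detected probes only). Smtn was 5.08-fold higher, a call lost without A2 (0.0742). Acta2, smooth muscle actin, read 1.37 and 2.30 on Pu1 and Pu2 and 1.70 and 2.07 on A1 and A2 and did not pass (adjusted p = 0.931), so the A-type values lay inside the pulmonary range. The few smooth muscle calls are given as a description, since 14.9% of all genes were called higher and 12.2% lower. Of 3 genes known from cartilage Sox9 (11.8-fold) and Comp (at least 6.7-fold) were higher, and of 4 Schwann cell genes 2 were lower (0 without A1 or A2).

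Matrix genes are given by group. Of 12 fibrillar and beaded-filament collagen genes 11 were higher, with a median of 3.64, and the same number was higher without any 1 of the 4 arrays. Col1a2, the second chain of type I collagen, read 4.40 and 4.97 on Pu1 and Pu2 and 8.42 and 8.55 on A1 and A2 and was 13.9-fold higher (3.80 ± 0.32 SE, adjusted p = 0.000259). Col5a1, which nucleates type I fibrils, read 2.27 and 2.38 on Pu1 and Pu2 and 6.26 and 6.25 on A1 and A2 (15.3-fold, adjusted p = 0.000179), and Col6a2, a chain of the beaded filaments around cells, 2.96 and 3.94 on Pu1 and Pu2 and 6.61 and 6.81 on A1 and A2 (9.59-fold, adjusted p = 0.00139). The smallest called difference was Col6a3 (5.79-fold) and the largest Col14a1, a fibril-associated collagen, at -2.72 and -0.16 on Pu1 and Pu2 and 4.33 and 4.40 on A1 and A2 (55.8-fold, adjusted p = 0.00153). Col12a1 did not pass (0.17; probes -1.28 to 0.17).

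Enzymes that mature collagen were higher in 13 of 20 (median 2.03; 9 without A2). Adamts2, which removes the N-propeptide, was 23.8-fold higher (adjusted p = 0.000178), and Pcolce, which enhances removal of the C-propeptide, 13.7-fold (adjusted p = 0.000296). The collagen chaperone Serpinh1 read 0.89 and 2.49 on Pu1 and Pu2 and 4.76 and 4.61 on A1 and A2 (7.96-fold, adjusted p = 0.00477). The hydroxylases P4ha2 and Plod2 were 4.53-fold and 7.95-fold higher, while the hydroxylase Plod3 and the galactosyltransferase Colgalt1 did not pass (0.41 and 0.11).

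The promoters of 4 genes called higher are shown because they stand for the collagen, hyaluronan and immediate early groups. Each window holds the 250 bases before the RefSeq start, 5′ to 3′ on the gene's strand (GRCm38.p6). Capitals mark matches on either strand to the CCAAT box (letters CCAAT), the TATA box (letters TATAAA) and the cyclic AMP response element (letters TGACGTCA).
Col1a2, chr6:4505368-4505617, plus strand: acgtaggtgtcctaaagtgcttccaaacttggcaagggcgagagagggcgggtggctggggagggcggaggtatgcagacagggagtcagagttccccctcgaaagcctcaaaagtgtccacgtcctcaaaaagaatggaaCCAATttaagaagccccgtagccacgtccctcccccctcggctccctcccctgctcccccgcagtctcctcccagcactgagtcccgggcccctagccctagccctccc
Has1, chr17:17855189-17855438, minus strand: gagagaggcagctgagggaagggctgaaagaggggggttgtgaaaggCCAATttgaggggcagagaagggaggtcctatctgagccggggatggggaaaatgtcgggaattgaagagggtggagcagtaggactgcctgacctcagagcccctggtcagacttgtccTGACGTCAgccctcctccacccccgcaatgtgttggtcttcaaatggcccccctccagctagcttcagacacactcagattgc
Tnfaip6, chr2:52037863-52038112, plus strand: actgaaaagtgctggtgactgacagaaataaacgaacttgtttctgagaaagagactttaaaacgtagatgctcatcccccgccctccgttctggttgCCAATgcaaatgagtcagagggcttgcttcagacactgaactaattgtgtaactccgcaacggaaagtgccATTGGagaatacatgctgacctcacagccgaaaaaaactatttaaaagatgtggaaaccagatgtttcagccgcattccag
Fos, chr12:85473640-85473889, plus strand: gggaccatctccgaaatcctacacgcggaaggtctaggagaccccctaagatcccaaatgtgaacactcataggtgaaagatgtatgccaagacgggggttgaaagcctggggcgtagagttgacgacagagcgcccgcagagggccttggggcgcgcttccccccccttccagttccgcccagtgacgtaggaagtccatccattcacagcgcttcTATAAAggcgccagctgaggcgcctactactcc

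In Col1a2 the CCAAT match starts 109 bases before the start, in Tnfaip6 matches start at 152 and 81 bases before it, and in Has1 a CCAAT match starts at 203 and a TGACGTCA match at 83 bases before it. The TATAAA match of Fos starts 33 bases before the start. Of the 82 matrix genes called higher, 53 had a window in the table, with 63 windows in all. CCAAT was in 30.2% of these windows and in 33.8% of all 32851 windows, TATAAA in 11.1% and 12.4%, and TGACGTCA in 3.17% and 1.55%. A match is a run of letters and not a binding site, and the shares are given as a description. The TGACGTCA share of the matrix genes rests on 2 windows.

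Elastic fibre genes were higher in 15 of 20 (median 2.69). Elastin (Eln) read 3.64 and 4.47 on Pu1 and Pu2 and 7.25 and 7.41 on A1 and A2 and was 9.66-fold higher (adjusted p = 0.000833), and Fbn1, the microfibril scaffold, 13.3-fold (adjusted p = 0.00102). The fibulins that link cells and fibrils, Fbln1 (30.6-fold), Fbln2 (41.8-fold) and Fbln5 (15.7-fold), and the crosslinking oxidases Lox (5.81-fold) and Loxl1 (8.24-fold) rose with them. Fbn2, a fibrillin of development, did not pass in the full fit (-0.83) and passed as lower without Pu1 (0.0307) and without Pu2 (0.0494).

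Proteoglycan genes were higher in 13 of 16 (median 3.16). Among the small leucine-rich members, Bgn (7.22-fold), Omd (23.7-fold) and Podn (27.4-fold) rose, and Aspn, at -3.78 and -3.32 on Pu1 and Pu2 and 1.11 and 1.12 on A1 and A2, was 25.4-fold higher and above background on 1 pulmonary array. Versican (Vcan), a large hyaluronan-binding proteoglycan, was 14.9-fold higher, and the cell surface glypican Gpc3 13.3-fold, at 2.97 and 3.32 on Pu1 and Pu2 and 6.93 and 6.82 on A1 and A2. Chad was 4.41-fold lower, above background on 1 A-type array, and its call was lost without A1 (0.0592). Sdc1, a syndecan of epithelium and plasma cells, did not pass (-1.07).

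Of 23 basement membrane genes 13 were higher and 1 lower (median 1.93). The mesenchymal laminin chains Lama2 (1.60 and 2.12 in the pulmonary cells and 5.20 and 5.30 in the A-type cells; 10.5-fold) and Lama4 (6.98-fold) rose, as did Lamb2 (8.39-fold), perlecan (Hspg2, 7.87-fold), Col15a1 (16.9-fold) and Col4a5 (14.2-fold). Lama5, a chain of epithelial and endothelial basement membranes, read 0.87 and 2.08 on Pu1 and Pu2 and -2.05 and -1.71 on A1 and A2 and was 10.2-fold lower (adjusted p = 0.00162). The main type IV collagen chains did not pass, Col4a1 at 0.83 (it passed without Pu2 (0.0153)) and Col4a2 at -0.03, nor did Lama3 (-0.68; probes -2.53 to -0.68). Npnt, a ligand of the integrin that contains Itga8, read 3.57 and 3.71 on Pu1 and Pu2 and 3.05 and 3.22 on A1 and A2, with the A-type arrays below the pulmonary ones by less than the test resolved (adjusted p = 0.254).

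Matricellular proteins, which sit in the matrix and tune signalling, were higher in 15 of 19 (median 2.43; 11 without A1 or A2). Tenascin X (Tnxb) read -0.53 and 0.05 on Pu1 and Pu2 and 3.24 and 3.27 on A1 and A2 (11.3-fold, adjusted p = 0.000373), and Thbs2, a thrombospondin, was below background on both pulmonary arrays and at least 11.5-fold higher. Smoc2 (27-fold), Ccn1 (6.84-fold) and Ccn2 (5.03-fold) rose as well. Postn, periostin, went the other way, at least 5.14-fold lower and below background on both A-type arrays, a call lost without A2 (0.0716). Tenascin C (Tnc) did not pass (-1.25; probes -3.40 to -1.25).

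Of 9 hyaluronan genes 2 were higher (4 under median scaling) and 2 lower (1 without A1 or A2). Of all genes tested 14.9% were called higher and 12.2% lower, so these few calls are given as a description. Has1, a hyaluronan synthase, read 1.33 and 1.53 on Pu1 and Pu2 and 6.23 and 6.44 on A1 and A2 and was 30-fold higher (4.91 ± 0.27 SE, adjusted p = 7.82e-05). Tnfaip6, which crosslinks hyaluronan, read 0.52 and 0.31 on Pu1 and Pu2 and 5.43 and 5.57 on A1 and A2 (34-fold, adjusted p = 0.00014). Both had all A-type values far above the pulmonary ones. Has2 read -2.93 and -6.39 on Pu1 and Pu2 and -1.48 and -1.01 on A1 and A2, below background on 1 pulmonary array, and did not pass (adjusted p = 0.09); it passed without Pu1 (0.0327). The scavenger receptor Stab1 was at least 14.3-fold lower.

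Matrix proteases and inhibitors were higher in 15 of 25 and lower in 4 (median 2.54). The gelatinase Mmp2 read 1.14 and 1.40 on Pu1 and Pu2 and 5.14 and 5.36 on A1 and A2 (15.7-fold, adjusted p = 0.000187) and stromelysin Mmp3 0.33 and 1.58 on Pu1 and Pu2 and 5.87 and 5.82 on A1 and A2 (29.6-fold, adjusted p = 0.000289). The inhibitors Timp1 (30.3-fold, above background on 1 pulmonary array) and Timp3 (11.1-fold) and the antiangiogenic serpin Serpinf1, at 3.57 and 2.98 on Pu1 and Pu2 and 8.21 and 8.14 on A1 and A2 (29.9-fold), rose. The lower members were the leukocyte proteases Mmp8 (at least 43.4-fold), Mmp9 (at least 12.3-fold) and Mmp12 (at least 49.3-fold) and the urokinase receptor Plaur (11.3-fold).

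**Figure D3:**
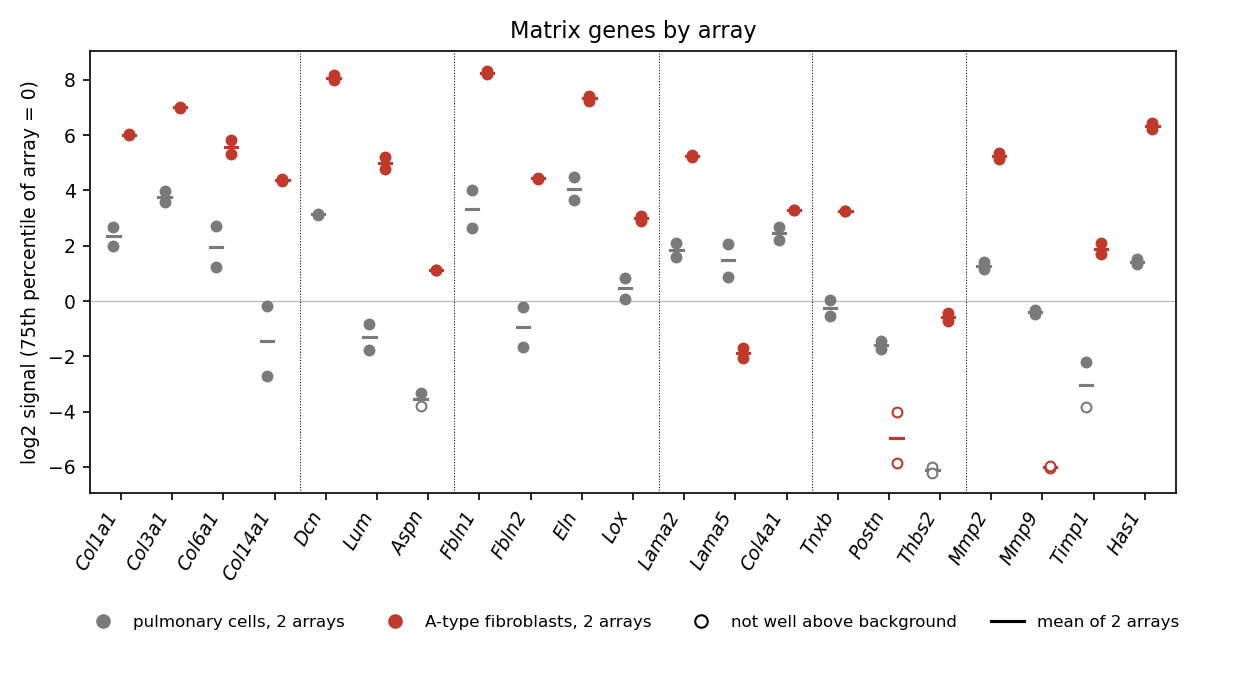
Scaled log2 signal of matrix genes on each array, with pulmonary cells in grey and A-type fibroblasts in red, open circles for values not well above background and bars at the mean of 2 arrays. Dotted lines separate collagens, proteoglycans, elastic fibre genes, basement membrane genes, matricellular genes and enzymes. Lama5, Postn and Mmp9 are the 3 genes whose A-type points lie below the pulmonary points.

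Markers that other work assigns to places in the lung were read next. Adventitial markers were higher in 15 of 20 and lower in 1 (median 3.72). Pi16, a peptidase inhibitor of the universal fibroblast state, read 0.06 and 0.32 on Pu1 and Pu2 and 3.57 and 3.52 on A1 and A2 (10.2-fold, adjusted p = 0.000396), dermatopontin (Dpt) -1.03 and -0.62 on Pu1 and Pu2 and 3.71 and 3.84 on A1 and A2 (24.2-fold, adjusted p = 0.000107) and endosialin (Cd248) 1.34 and 1.67 on Pu1 and Pu2 and 5.42 and 5.48 on A1 and A2 (15.4-fold, adjusted p = 0.000143). In each the groups were several log2 units apart. Dpp4, a peptidase that fibroblasts, epithelium and T cells share, was 10.3-fold lower, a call lost without Pu1 (0.0588), without A1 (0.0581) and without A2 (0.0684). Il33, an alarmin cytokine of adventitial stroma, read -0.58 and 0.26 on Pu1 and Pu2 and 3.02 and 3.20 on A1 and A2 (9.66-fold, adjusted p = 0.00417). Of 10 markers of alveolar fibroblasts 4 were higher and 1 lower (median 0.60). The 4 were the transcription factor Tcf21, at 1.14 and 1.12 on Pu1 and Pu2 and 3.03 and 3.33 on A1 and A2 (4.13-fold), the methyltransferase Inmt (5.24-fold), Gpc3 and the dehydrogenase Adh1 (12-fold). Ces1d, a lipid hydrolase, was 3.91-fold lower, a call lost without A1 (0.0694) and without A2 (0.0572). Itga8, an integrin chain of alveolar fibroblasts and muscle, read 2.12 and 2.81 on Pu1 and Pu2 and 2.74 and 2.64 on A1 and A2, so A-type values lay inside the pulmonary range (adjusted p = 0.661).

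Retinoid genes were higher in 8 of 19 and lower in 0 (median 0.80; 5 higher without A1 or A2). The carrier Rbp4, at -1.27 and -0.40 on Pu1 and Pu2 and 4.39 and 4.51 on A1 and A2 (39-fold, adjusted p = 0.000129), and the retinol dehydrogenases Adh1 and Adh7 (16.1-fold) rose. The retinoic acid synthase Aldh1a3 read -6.10 and -4.22 on Pu1 and Pu2 and 2.38 and 2.55 on A1 and A2, above background on 1 pulmonary array, and its call was lost without Pu1 (0.0626), without A1 (0.0529) and without A2 (0.0615). Lrat, the enzyme that stores retinol as ester, read 2.41 and 1.71 on Pu1 and Pu2 and 2.96 and 2.72 on A1 and A2 and did not pass (adjusted p = 0.123), but passed without Pu1 (0.0291). Of 14 genes of lipid storage and uptake 7 were lower and 0 higher (median -2.11). The lipid droplet coat Plin2 read 3.37 and 3.05 on Pu1 and Pu2 and 0.43 and 0.60 on A1 and A2 (6.46-fold lower, adjusted p = 0.0007), the adipogenic receptor Pparg 1.82 and 2.86 on Pu1 and Pu2 and -0.95 and -0.95 on A1 and A2 (9.78-fold lower, adjusted p = 0.00102), and the desaturase Scd1 was 3.92-fold lower. Plin1 and Lpl did not pass (0.03 and -0.82; Lpl passed without Pu2 (0.026)). Alveolar macrophages and type 2 cells, whose markers fell in the same comparison, also carry Plin2, Pparg and Scd1, and their part in these differences was not tested.

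Signalling genes were read by pathway and role. Of 24 Wnt genes 13 were higher and 2 lower (median 1.98; 9 higher without A1 or A2). Among ligands, Wnt2b read -0.65 and -0.02 on Pu1 and Pu2 and 3.98 and 3.90 on A1 and A2 (19.4-fold, adjusted p = 0.000172) and Wnt9a was 30.7-fold higher, above background on 1 pulmonary array. The receptors Fzd1 (8.14-fold), Fzd2 (14.6-fold) and Fzd7 (4.38-fold) rose. So did the secreted antagonists Sfrp1 (9.2-fold) and Sfrp4 (24.4-fold) and the Dickkopf family member Dkk3 (8.61-fold). The nuclear effectors Lef1, above background on 1 A-type array, and Tcf7, both also genes of T cells, were lower (24.1-fold, 11.3-fold with the floor, and 7.23-fold), and the calls were lost without Pu1 (0.0908) and without A2 (0.072) for Lef1 and without Pu1 (0.0757), without A1 (0.0754) and without A2 (0.0915) for Tcf7. Axin2, a transcriptional target of the pathway, was 4.4-fold higher (probes -0.21 to 2.14), a call lost without A1 (0.0843) and without A2 (0.109).

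Of 28 BMP and TGF-beta genes 15 were higher and 7 lower (median 1.51; 9 higher without A2, and 3 lower without A1 or A2 or under median scaling). Tgfb3 read 0.10 and 0.95 on Pu1 and Pu2 and 4.83 and 5.09 on A1 and A2 (21.6-fold, adjusted p = 0.000245), and Gdf10, a related ligand, -1.57 and -1.56 on Pu1 and Pu2 and 2.79 and 2.89 on A1 and A2 (21.2-fold, adjusted p = 0.000102). Tgfb1, the ligand abundant in leukocytes and platelets, was 4.17-fold lower, a call lost without A1 (0.135) and without A2 (0.093). Bmp4 was 4.08-fold higher while Bmp6 read 2.45 and 2.88 on Pu1 and Pu2 and -1.30 and -2.54 on A1 and A2 and was 23.9-fold lower (adjusted p = 0.000632), so single ligands of each branch moved in opposite directions. The extracellular antagonists Fstl1 (18-fold) and Fstl3 (10.5-fold) were higher. Of the receptors, Bmpr1a (5.24-fold) and betaglycan (Tgfbr3, 3.8-fold) rose, whereas Bmpr2 (4.01-fold) and the endothelial co-receptor Eng (3.85-fold) fell.

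Of 12 FGF and HGF genes 5 were higher (3 without A1 or A2, and 3 with the percentile taken over detected probes only) and 1 lower (0 without A1 or A2). Fgf7 and Fgf10, mesenchymal ligands for the epithelial receptor Fgfr2, read -1.36 and 0.13 on Pu1 and Pu2 and 2.88 and 3.05 on A1 and A2 (12-fold, adjusted p = 0.00184) and -1.15 and -0.61 on Pu1 and Pu2 and 2.43 and 2.55 on A1 and A2 (10.3-fold, adjusted p = 0.000304). Fgf9, below background in pulmonary cells, was at least 4.85-fold higher. The 1 gene called lower is given as a description, since 12.2% of all genes were called lower. Fgfr1 did not pass on its brightest probe (-0.25), and its probes ranged from -0.25 to 4.03. IGF genes were higher in 7 of 10 and lower in 1 (0 without Pu1, A1 or A2), with a median of 2.05. Igf1 read -0.04 and 0.33 on Pu1 and Pu2 and 3.87 and 3.98 on A1 and A2 (13.7-fold, adjusted p = 0.000276), Igf2 -1.99 and -2.59 on Pu1 and Pu2 and 1.26 and 1.49 on A1 and A2 (12.7-fold, adjusted p = 0.000661), and the binding proteins Igfbp4 (20.1-fold) and Igfbp6 (9.19-fold) rose with the ligands.

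Of the hedgehog ligands, Shh (at least 2.13-fold) and Dhh (8.88-fold, above background on 1 A-type array; 5.82-fold with the floor) were lower, and Ihh did not pass (-0.37). The receptor and target Ptch1 read -0.66 and -0.92 on Pu1 and Pu2 and 1.83 and 1.53 on A1 and A2 (5.53-fold higher, adjusted p = 0.000942), the inhibitor Hhip -2.67 and -1.50 on Pu1 and Pu2 and 0.89 and 0.88 on A1 and A2 (7.81-fold, adjusted p = 0.00198) and the effector and target Gli1 -1.33 and -1.02 on Pu1 and Pu2 and 2.31 and 2.22 on A1 and A2 (10.9-fold, adjusted p = 0.00021; probes 0.35 to 3.44). Gli2 was at least 11.8-fold higher, and the co-receptors Gas1 (12.7-fold; probes -0.58 to 3.67) and Cdon (26.3-fold) rose. In all, 8 of 13 were higher and 2 lower (median 2.20), so the called ligands were dimmer and the called receptors and targets brighter in A-type cells.

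Among 18 PDGF, VEGF, angiopoietin and KIT genes 5 were higher (2 without A2) and 8 lower (3 without A1, 4 without A2). The VEGF receptor Flt1 read 2.05 and 2.94 on Pu1 and Pu2 and -3.39 and -2.33 on A1 and A2 (41-fold lower, adjusted p = 0.000406; probes -6.75 to -3.31), and Kit, the stem cell factor receptor of mast cells and capillaries, 1.70 and 2.25 on Pu1 and Pu2 and -3.18 and -2.83 on A1 and A2 (31.6-fold lower, adjusted p = 0.000539). Vegfd, a lymphatic growth factor, read 0.20 and 0.49 on Pu1 and Pu2 and 3.26 and 3.72 on A1 and A2 (8.83-fold higher, adjusted p = 0.000409). Angpt1, which activates the endothelial receptor Tek, was 4.46-fold higher, a call lost without A2 (0.0547). Vegfa read 5.35 and 3.53 on Pu1 and Pu2 and 4.38 and 4.64 on A1 and A2, with the pulmonary arrays on either side of the A-type ones, and did not pass.

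**Figure D4:**
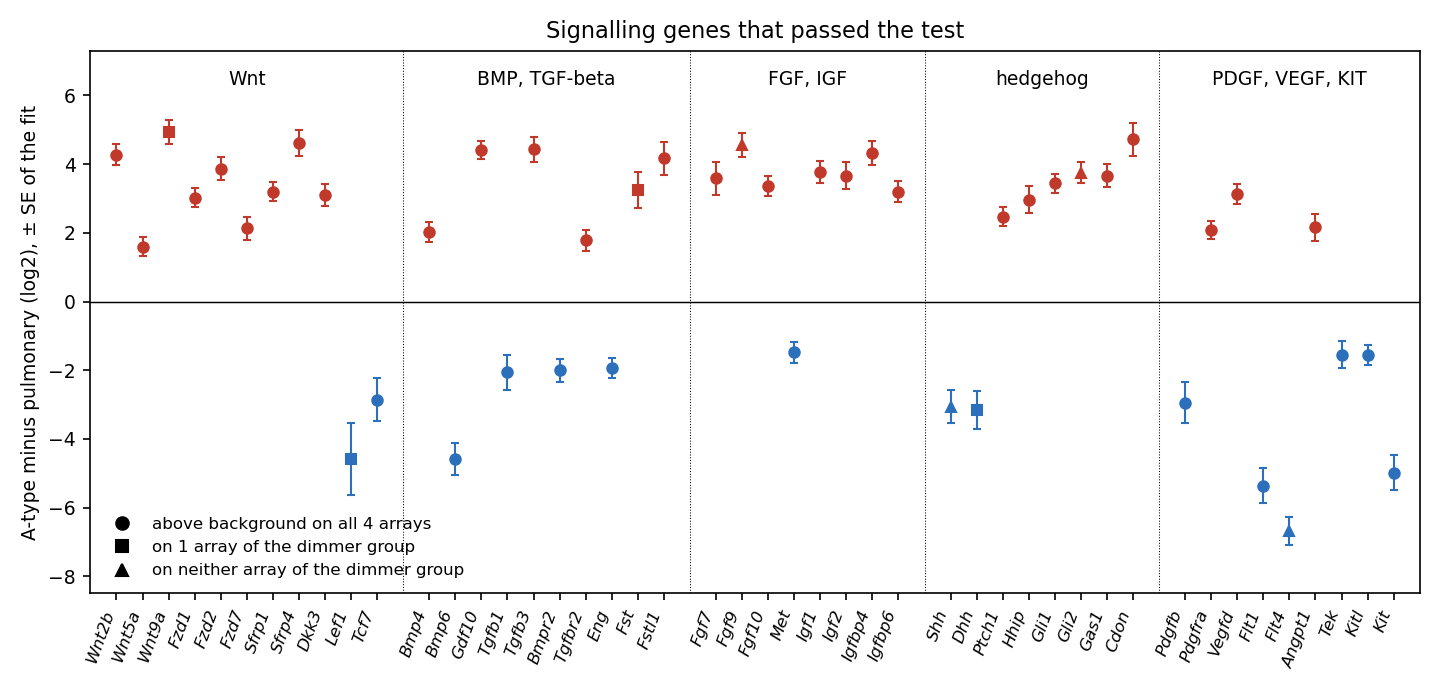
Log2 difference between A-type and pulmonary cells, with the standard error of the fit, for a selection of the signalling genes that passed the test, grouped by pathway and coloured red where higher and blue where lower. Marker shapes show on how many arrays of the dimmer group the gene was above background; ligands of the hedgehog group lie below 0 and its receptors and targets above it.

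Complement genes were higher in 9 of 14 and lower in 3 (median 2.70), counts that held without any 1 of the 4 arrays. C3 read 4.26 and 5.87 on Pu1 and Pu2 and 8.62 and 8.69 on A1 and A2 (12-fold, adjusted p = 0.00217) and factor B (Cfb) 3.12 and 2.51 on Pu1 and Pu2 and 6.22 and 6.13 on A1 and A2 (10.2-fold, adjusted p = 0.00121). C1s1, a protease of the classical pathway, was 18.5-fold higher and its inhibitor Serping1 12.2-fold. The 3 lower genes, C1qa (18.9-fold, above background on 1 A-type array), C1qb (5.28-fold) and C1qc (at least 24.6-fold), encode the recognition unit, which macrophages make.

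Chemokine and cytokine genes were higher in 10 of 21 (7 without A1 or A2) and lower in 4 (1 without A1 or A2), with a median of 1.13. Cxcl1, a neutrophil chemoattractant, read 0.98 and 1.06 on Pu1 and Pu2 and 5.72 and 5.83 on A1 and A2 (27-fold, adjusted p = 0.000107), and Il6 -0.03 and 0.09 on Pu1 and Pu2 and 4.18 and 4.27 on A1 and A2 (18.3-fold, adjusted p = 0.00025). Cxcl2, a close relative of Cxcl1 that myeloid cells make, read 1.88 and 1.94 on Pu1 and Pu2 and -3.09 and -2.66 on A1 and A2 and was 27.6-fold lower (adjusted p = 0.000245). The 2 related chemokines thus moved in opposite directions. Csf1, the growth factor of macrophages, was 8.33-fold higher (adjusted p = 0.00151), Ccl7 6.07-fold and Ccl8 7.19-fold. Cxcl12 did not pass on its brightest probe (-0.25), and its probes ranged from -0.25 to 4.84.

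Transcription factors of mesenchyme were higher in 18 of 24 and lower in 0 (median 2.41; 13 without A1, 11 without A2). Prrx1, a homeobox regulator of mesenchyme, read -3.29 and -3.21 on Pu1 and Pu2 and 1.17 and 1.08 on A1 and A2 (20.8-fold, adjusted p = 0.000188), Osr1 0.02 and -1.52 on Pu1 and Pu2 and 2.99 and 3.17 on A1 and A2 (14.2-fold, adjusted p = 0.00154) and Tbx4, a T-box gene that marks lung mesenchyme, 0.01 and 0.90 on Pu1 and Pu2 and 3.16 and 3.03 on A1 and A2 (6.23-fold, adjusted p = 0.00191). The groups did not overlap in the 3 genes, as in 36.8% of all genes with the A-type arrays higher, and the pulmonary arrays were farthest apart in Osr1. Gata6 was 5.26-fold higher and Nr2f1 3.39-fold. Foxf1, a factor of lung mesenchyme and endothelium, read 3.79 and 4.41 on Pu1 and Pu2 and 3.99 and 4.08 on A1 and A2 and did not pass (adjusted p = 0.894). Factors of other lineages were lower in 16 of 20 and higher in 0 (median -3.34), and 10 of them were above background on neither A-type array. These 10 entered the test only through the pulmonary arrays, so their direction was largely fixed by the filter. The count of lower factors fell without A1 or A2. Nkx2-1, which specifies lung epithelium, was at least 32.6-fold lower, Spi1 of myeloid cells at least 89.8-fold and Sox17 of endothelium at least 23.7-fold.

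Hox genes, which record position along the body axis, were higher in 10 of 18 and lower in 0 (median 1.70). Hoxa3 read 0.52 and 0.49 on Pu1 and Pu2 and 3.33 and 3.24 on A1 and A2 (6.87-fold, adjusted p = 0.0011), Hoxb4 -1.80 and -1.33 on Pu1 and Pu2 and 1.53 and 1.83 on A1 and A2 (9.48-fold, adjusted p = 0.000942), and Hoxb7 was 14.2-fold higher (7.28-fold with the floor), above background on 1 pulmonary array. These 3 kept the call without any 1 of the 4 arrays, but the count fell to 7 without Pu2, 4 without A1 and 3 without A2. Hoxc4 read -1.70 and -6.70 on Pu1 and Pu2 and 1.64 and 1.90 on A1 and A2, with 1 pulmonary array above background and the other far below it, and its call was lost without A1 (0.0788) and without A2 (0.0967). Another 11 listed genes, mostly of the Hoxc and Hoxd clusters, were not above background on both arrays of either group.

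Immediate early genes, which respond within minutes to signals and to tissue handling, were higher in 11 of 16 and lower in 0 (median 1.11). Fosb read 5.51 and 6.17 on Pu1 and Pu2 and 7.71 and 7.95 on A1 and A2 (3.98-fold, 1.99 ± 0.31 SE, adjusted p = 0.00377), Egr1 7.10 and 7.32 on Pu1 and Pu2 and 9.06 and 9.07 on A1 and A2 (3.62-fold, adjusted p = 0.00232) and Nr4a1 4.62 and 4.71 on Pu1 and Pu2 and 6.54 and 6.39 on A1 and A2 (3.48-fold, adjusted p = 0.00244). The groups did not overlap in these 3, as in 36.8% of all genes with the A-type arrays higher. The pulmonary levels were themselves well above the 75th percentile. Fos was 2.75-fold higher, a call lost without A1 (0.0539) and without A2 (0.0987), and Dusp1 3.34-fold, lost without A1 (0.121) and without A2 (0.136). Junb, Egr3, Ier2 and Ier3 did not pass (0.43, 0.66, 0.63 and -0.46), and Egr3 passed without Pu1 (0.0333). The count was 5 without A1, 3 without A2 and 7 with the percentile taken over detected probes only. The time between isolation and RNA extraction in each group is not stated in the sources used here, and the part of handling was not tested.

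**Figure D5:**
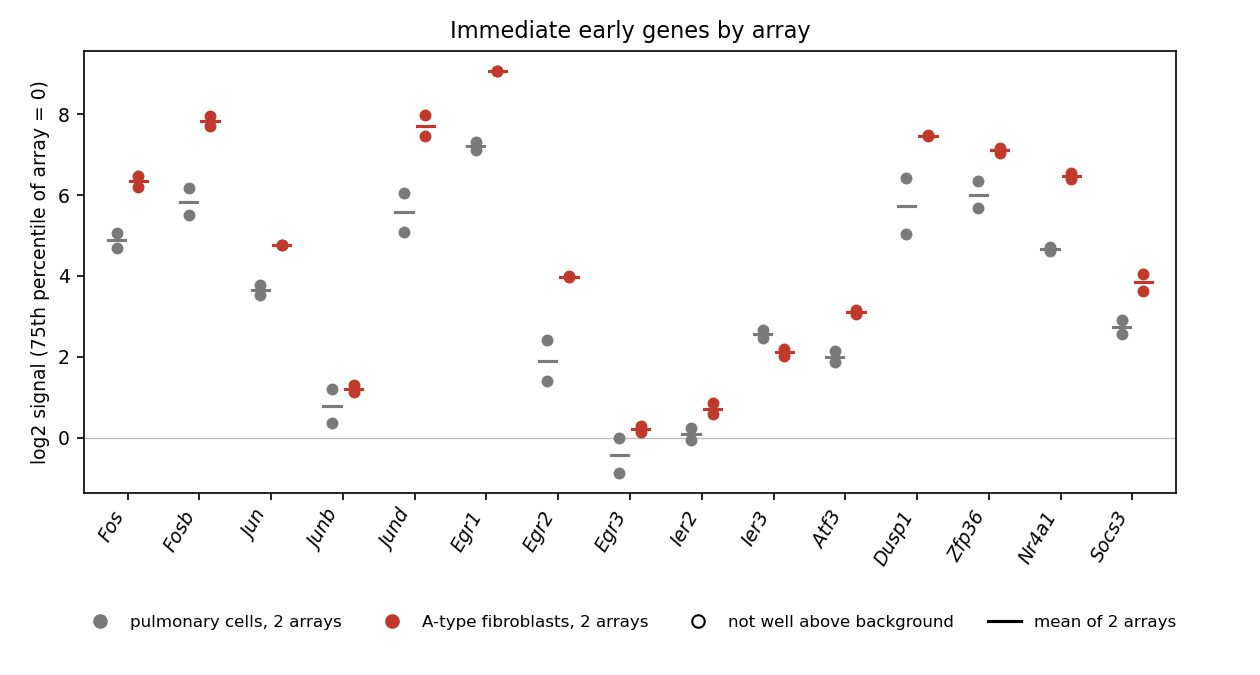
Scaled log2 signal of immediate early genes on each array, with pulmonary cells in grey, A-type fibroblasts in red and bars at the mean of 2 arrays. The A-type points lie above the pulmonary points in most genes, and Ier3 lies the other way without passing.

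Proliferation genes were lower in 6 of 17 (4 without A1 or A2) and higher in 2 (4 without Pu2, 1 without A2). Of all genes tested 14.9% were called higher and 12.2% lower, so the few higher calls here are given as a description. Mki67, a marker of cycling cells, read 2.33 and 2.18 on Pu1 and Pu2 and -2.22 and -2.24 on A1 and A2 (22.4-fold lower, adjusted p = 0.000402), and the mitotic kinase gene Bub1 was at least 2.37-fold lower. The higher genes are inhibitors, Cdkn1c, at -1.18 and -1.93 on Pu1 and Pu2 and 0.80 and 0.89 on A1 and A2 (5.3-fold, adjusted p = 0.002), and Cdkn2c (3.22-fold), whose call was lost without A2 (0.057). Cdk1 and Pcna did not pass (-0.34 and 0.58; Pcna passed without Pu2 (0.0345)). Imprinted genes, expressed from 1 parental allele, were higher in 10 of 14 (6 without A1 or A2) and lower in 1 (0 without A1 or A2), with a median of 2.04. Meg3, a non-coding RNA, was 14.1-fold higher and above background on 1 pulmonary array, Peg3 read -1.11 and -1.32 on Pu1 and Pu2 and 1.83 and 1.86 on A1 and A2 (8.33-fold, adjusted p = 0.00031), and Grb10, an adaptor that restrains growth signalling, was 4.37-fold higher. H19 did not pass on its brightest probe (0.93; probes -0.02 to 3.13).

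Adhesion and guidance genes had calls in both directions, as did all genes tested, of which 14.9% were called higher and 12.2% lower. The few members called higher among integrins and among cadherins and connexins are given as a description. Of 21 integrin genes 4 were higher (2 without A2) and 8 lower. Itga11, a collagen receptor of fibroblasts, read -4.01 and -2.06 on Pu1 and Pu2 and 1.61 and 2.30 on A1 and A2 (31.9-fold, adjusted p = 0.00134; above background on 1 pulmonary array), and the vitronectin receptor chain Itgav was 3.71-fold higher. Itga1, a collagen receptor of vessels and leukocytes, was 22-fold lower, and the leukocyte chain Itga4 at least 42-fold. Itgb1, the chain that most matrix receptors share, did not pass (-0.30; probes -0.30 to 0.33), and passed as lower without Pu2 (0.0241). Of 11 cadherin and connexin genes 2 were higher (1 without A1 or A2) and 4 lower. Cadherin 11 (Cdh11), which joins fibroblasts, read 1.20 and 0.83 on Pu1 and Pu2 and 3.41 and 3.54 on A1 and A2 (5.5-fold, adjusted p = 0.000934), while Cdh5 of endothelium was 341-fold lower and above background on 1 A-type array. Axon guidance genes were higher in 9 of 23, such as the repellent Slit3, at 0.37 and 1.08 on Pu1 and Pu2 and 4.87 and 4.88 on A1 and A2 (17.7-fold, adjusted p = 0.000241), and Sema3d (20.8-fold), and lower in 4, such as Efnb2, an arterial ephrin (16.3-fold), and Robo4, the endothelial receptor (at least 28.2-fold).

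Lipid mediators and detoxification were the last groups read. Of 14 prostaglandin and leukotriene genes 4 were higher and 5 lower (median -0.01). Prostacyclin synthase (Ptgis) read -1.63 and -1.32 on Pu1 and Pu2 and 1.55 and 1.79 on A1 and A2 (8.85-fold, adjusted p = 0.00044), and the receptor Ptgfr was 40.9-fold higher (21.7-fold with the floor), above background on 1 pulmonary array. The leukotriene enzyme Alox5 was at least 32.1-fold lower, its partner Alox5ap 84-fold, and Hpgd, which degrades prostaglandins, 18.1-fold. Of 18 antioxidant and detoxifying enzymes 8 were higher (5 without A1 or A2) and 2 lower (1 without A1 or A2). The cytochrome Cyp1b1 read -0.99 and -2.50 on Pu1 and Pu2 and 3.32 and 3.72 on A1 and A2 (38.5-fold, adjusted p = 0.000599) and the glutathione transferase Gstt1 1.76 and 1.91 on Pu1 and Pu2 and 5.10 and 5.34 on A1 and A2 (10.4-fold, adjusted p = 0.000367). Of 7 neurotrophin genes 3 were higher (5 under median scaling), with Ngfr, the low-affinity nerve growth factor receptor, at -2.30 and -3.21 on Pu1 and Pu2 and 0.00 and 0.36 on A1 and A2 (7.64-fold, adjusted p = 0.00156). Of 15 interferon and MHC class I genes 0 were higher and 3 lower (1 without A1 or A2, and 5 without Pu2 or with the percentile taken over detected probes only). The class I genes H2-K1 and B2m did not pass (-0.19 and 0.19), and the antiviral gene Rsad2 was 8.28-fold lower. The few lower calls among these and the detoxifying genes are given as a description, since 12.2% of all genes were called lower.

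Whether these differences were of the same size in the other fibroblast types was tested by setting A-type arrays against B-type and C-type arrays in the same fit, in which the pulmonary arrays cancel. Between A and B 0 of 17459 genes (0%) were called by limma (555 at an unadjusted p under 0.05; 22 called with normexp correction, 41 with the 4 compared arrays alone and 232 with array weights; 1 called without C1 or C2). Between A and C 87 genes (0.498%) were called, 58 higher and 29 lower in A, but the count was 0 without A1, A2, B1, B2 or C2, 229 without Pu1 or Pu2 and 522 without C1. With 0 genes called against B, no difference from the pulmonary cells could be called particular to the A type. Among the genes described above, Penk read 5.04 and 5.14 in A, 5.53 and 5.12 in B and 1.91 and 0.88 in C (A minus C 3.69 ± 0.52 SE, adjusted p = 0.0465; A minus B -0.24 ± 0.52 SE, adjusted p = 1), and Cd248 5.42 and 5.48, 6.02 and 5.77 and 3.02 and 2.97 (A minus C 2.45 ± 0.27 SE, adjusted p = 0.0297; A minus B -0.45 ± 0.27 SE, adjusted p = 1). Npnt read 3.05 and 3.22 in A, -0.04 and 0.42 in B and 6.05 and 6.43 in C (A minus C -3.11 ± 0.30 SE, adjusted p = 0.0251; A minus B 2.94 ± 0.30 SE, adjusted p = 0.139). The A-type values of Npnt lay between those of the B and C types, while Penk and Cd248 were lowest in C and did not pass between A and B.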

How the data were processed

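Total RNA of the 8 samples was amplified by whole transcriptome amplification, labelled with Cy3 and hybridised to one-colour Agilent arrays, per the labels' protocols. The deposited scanner files hold the processed signal, a background-corrected intensity, as written by Agilent Feature Extraction 10.10.1.1, per the submitters' processing notes. The authors' deposited value table holds log2 values whose scaling the labels do not name. With each array centred, 100% of 55653 probes lay within 0.02 of the log2 scanner signal, and every column had a median of 4.84, so the table is median-scaled.

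Control spots and spots marked as outliers were left out (28 probes had none left on at least 1 array). The log2 processed signal minus the 75th percentile of the array was used, spots of a probe were averaged, and a gene was read on its brightest probe among those well above background on both arrays of A-type or of pulmonary cells. Probes were named through RefSeq accessions where possible (28011 probes) and otherwise by symbols in the files or further accessions, and 21875 probes had no name. The 4 group means were fitted to all 8 arrays by lmFit and eBayes of limma 3.58.1 (R 4.3.3), with Benjamini-Hochberg adjustment over 17459 genes. The groups thus share 1 estimate of the spread, although their own spreads differed. At least 2-fold apart were 30.8% of genes between the pulmonary arrays and 4.66% between the A-type arrays. The shared estimate can be too small for A-type minus pulmonary and too large for A minus B, which limits the p-values. Scaling, background correction, the filter, the probe rule, the arrays fitted, the variance model and single arrays were varied. The code was tested on simulated data. A fold written as at least N-fold, or with the floor, sets each array of the dimmer group to a floor where its own signal is lower. The floor is the lowest signal called well above background on that array. Some probes brighter than the floor were not well above background, so these folds are approximate bounds. Tables and figures were made with Python 3.11.15, pandas 2.3.3, numpy 2.4.6 and matplotlib 3.10.9. Other per-sample columns not used numbered 0.

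Genes named in the text are members of fixed lists, the genes of the sorting stains, and called genes with a plain symbol and the largest differences. The last are 15 higher and 15 lower genes above background on all 4 arrays whose groups did not overlap, and 12 in each direction, ranked by the bound, below background on both arrays of the dimmer group. A rule for 10 genes in each direction in which A differed from both B and C found 0. The members and lists were chosen with earlier results of these data known. A group has 2 arrays, and p-values measure the spread between samples that may share mice or handling. Promoter letters come from a RefSeq table of GRCm38.p6. Results for some list members are not reported here.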

Additional observations from a re-analysis of the deposited data

Results flagged for a closer look

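The tests of A-type against the other fibroblast types asked whether the differences from the pulmonary cells had different sizes in those types. Against the B type 0 genes were called by limma with Benjamini-Hochberg adjustment, and 555 had an unadjusted p under 0.05. Against the C type 87 were called, 58 higher and 29 lower in A-type cells; the higher ones include Penk, Cd248 and Scara5 and the lower ones Npnt, Itga8 and Lrat, which were chosen among the calls after their values were seen.

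Probes without a gene name stand outside every list and comparison above. In a fit over every probe that passed the filter, 527 of 13251 such probes were called higher and 926 lower in A-type than in pulmonary cells, which is 11% of them. Over all 37060 probes of that fit, named or not, 6877 were called, 3407 higher and 3470 lower. The share called was thus smaller among the unnamed probes than among all probes, in both directions.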

How the results depend on the processing

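Between A-type and pulmonary cells 4732 genes were called, and 3199 to 5287 under the other settings that kept all arrays and tested genes. The lowest of these was with array weights and the highest in the authors' value table. In the fit over every probe, 6877 of 37060 probes were called. With the 4 arrays compared alone, 3559 genes were called. Leaving out 1 array gave 2190 to 6898, with the 2 lowest counts without A2 (2190) and A1 (2473) and the highest without Pu2 (6898). The cause was not tested. Of 696 genes named or listed 479 were called, and 336 kept the call in every setting that tested them. The filter for probes above background on all 4 compared arrays did not test a gene without such a probe. A mean over the probes of a gene in place of the brightest reversed Cxcl12 (2.29), Fgfr1 (2.32) and Ptges (1.07), and Lamb3 read 1.11 without Pu2 and -1.23 without Pu1; none of the 4 was called with all arrays and the brightest probe. Between A and B 0 genes were called, with 22 under normexp correction, 41 with the 4 arrays compared alone, 232 with array weights, 4 with a trended robust variance and 0 to 1 when 1 array was left out. Between A and C 87 were called, 50 under median scaling, 51 under quantile normalization and 51 in the authors' value table. There were 181 under normexp correction, 1 without a filter on dim probes, 34 over every probe, 0 with the 4 arrays compared alone, 226 with array weights, 142 with a trended robust variance and 0 to 522 when 1 array was left out. With the 6 fibroblast arrays alone, a setting chosen after seeing the data, 229 were called between A and C and 0 between A and B. With the replicate number as a block, 4284 genes were called between A-type and pulmonary cells, 0 between A and B and 0 between A and C. Within each group replicate 1 was subtracted from replicate 2, and these differences correlated at -0.0875 to 0.0598 over the 6 pairs of groups. With 2 arrays a group, that cannot show whether same-numbered samples share mice or handling. Slide as a block was not run, because each of the compared groups lies on 1 slide. Signal over background limits the folds: 1061 of the 4732 called genes were below background on both arrays of the dimmer group, and have only a bound.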
